A study of Mus musculus with 36 samples.

Results

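Gabra2, Gabra3, Gabra4 and Gabra5, which encode alpha subunits of the GABA-A receptor, Gabrb1 and Gabrb2, which encode beta subunits, and Gabrg1, which encodes a gamma subunit, were followed across hypothalamus libraries of 3 inbred mouse strains. The genes were taken by symbol from the deposited count table, where each symbol matched 1 row. They are 7 of the 24265 genes in the table and 7 of its 16 GABA-A receptor subunit genes, and all 7 passed the filter on low counts. The GABA-A receptor is a chloride channel opened by the transmitter GABA and is built from 5 subunits, most often alpha and beta subunits with a gamma subunit. The alpha subunit sets much of the response to benzodiazepines and to tonic or synaptic GABA, and alpha2 receptors are known at inhibitory synapses of forebrain and hypothalamus. In C57BL/6J, Gabra2 is known to carry an intronic deletion that lowers its brain expression, and Gabrg1, Gabra4 and Gabrb1 lie beside it on chromosome 5.

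The study measured polyadenylated RNA of whole hypothalamus in 36 libraries. C57BL/6J is the mouse reference strain, NZO/HlLtJ a polygenic model of obesity and diabetes, and CAST/EiJ a wild-derived strain of another subspecies. Mice of all groups were wild type, per the labels, and stayed from 6 weeks of age until collection at 15 weeks on a control diet (10% fat with fiber) or on a high-fat, high-sugar diet (HFHS, 44% fat with fiber). The 3 strains, 2 diets and 2 sexes make 12 groups of n = 3 libraries, so 6 libraries stand behind each strain on each diet. The labels do not say that each library is a separate animal, so p-values measure the spread between libraries. Library numbers below follow the accession order within a group and pair nothing.

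Library totals, in units of 1e+06 counts, ran from 23.9 to 47.3 with a median of 34.6. Markers of hypothalamic neurons were present in all libraries. The level of 12 hypothalamic genes was summed in CPM (counts per 1e+06 counts of the library, after TMM scaling). Its medians on control and HFHS were 704 and 699 in C57BL/6J, 889 and 862 in NZO/HlLtJ, and 947 and 915 in CAST/EiJ. C57BL/6J was thus lowest on both diets, with ranges that overlapped those of NZO/HlLtJ. On the control diet its highest library, 814 CPM, was below the lowest of CAST/EiJ, 850 CPM. The lists for pan-neuronal, thalamic, pituitary and glial genes were detected as well. Some glial sums differed between strains on both diets. On HFHS oligodendrocyte genes summed to 4190 to 6280 CPM in C57BL/6J, 3520 to 4090 in NZO/HlLtJ and 2000 to 2760 in CAST/EiJ. Astrocyte genes summed to 2190 to 2410, 2910 to 3530 and 2010 to 2180 CPM in the same order. On the control diet C57BL/6J and NZO/HlLtJ did not overlap in either sum. Oligodendrocyte genes summed to 4000 to 5630 and 3020 to 3900 CPM there, and astrocyte genes to 2210 to 2500 and 2570 to 3120 CPM. CAST/EiJ overlapped both other strains in both sums on that diet. Its highest sums, 5810 and 3500 CPM, were both in CAST/EiJ control female 1, against medians of 3170 and 2200 CPM. Whether the hypothalamic marker level or the glial content bears on the subunit levels was not tested. Pituitary hormone genes summed to 2430 CPM in CAST/EiJ control female 1 and to 270 CPM in CAST/EiJ control male 1, against 2.18 to 55.9 CPM in the other 34 libraries, and thalamic genes summed to between 326 and 529 CPM. For each library, log2 deviations from the mean of its strain were regressed on the log2 length of merged exons over 15408 genes. This transcript-length slope was -0.165 in CAST/EiJ control female 1, -0.084 in CAST/EiJ control female 3, and from -0.065 to 0.047 elsewhere. Because it is centred within each strain, the slope cannot show or adjust for a length bias between whole strains. In a homogenate of mixed tissue, fewer cells of a type and less RNA per cell cannot be told apart.

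On GRCm38, Gabrg1 (ENSMUSG00000001260, chr5:70751047-70842617, minus strand), Gabra2 (ENSMUSG00000000560, chr5:70957597-71095849, minus) and Gabra4 (ENSMUSG00000029211, chr5:71569749-71658308, minus) were followed by Gabrb1 (ENSMUSG00000029212, chr5:71658113-72149037, plus). Gabrg1 ended 115 kb before Gabra2 began, and 473.9 kb separated Gabra2 from Gabra4. The spans of Gabra4 and Gabrb1 overlapped by 196 bases on opposite strands, with 46 exonic bases shared. Gabra5 (ENSMUSG00000055078, chr7:57407672-57510059, minus) shared 148 exonic bases, 4.98% of its exons, with Gm9962. Gabrb2 (ENSMUSG00000007653) lay at chr11:42419757-42629028 on the plus strand and Gabra3 (ENSMUSG00000031343) at chrX:72432681-72656848 on the minus strand, and neither they nor Gabra2 and Gabrg1 shared exonic bases with another gene. No source used here states whether counting used strand, so reads from shared bases cannot be assigned.

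The 250 bases before the RefSeq start are shown for Gabra2, the neighbour whose level differed between C57BL/6J and both other strains, and for Gabrg1 and Gabrb1, neighbours on chromosome 5 that were called in no strain comparison. They are the GRCm38.p6 reference, which is C57BL/6J sequence, and the other strains' bases were not used here. Capitals mark matches on either strand to GGGCGG (the GC box), TATAAA (the TATA box), TGACGTCA (the cAMP response element) or an NRF1-like palindrome (GCGC, any pair of bases, GCGC), none of which overlap.
Gabra2, chr5:71095850-71096099, minus strand: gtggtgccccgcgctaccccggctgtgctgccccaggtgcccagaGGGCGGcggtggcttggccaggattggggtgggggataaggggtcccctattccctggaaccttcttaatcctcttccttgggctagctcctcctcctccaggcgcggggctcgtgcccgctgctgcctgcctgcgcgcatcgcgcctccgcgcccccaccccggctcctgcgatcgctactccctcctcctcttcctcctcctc
Gabrg1, chr5:70842618-70842867, minus strand: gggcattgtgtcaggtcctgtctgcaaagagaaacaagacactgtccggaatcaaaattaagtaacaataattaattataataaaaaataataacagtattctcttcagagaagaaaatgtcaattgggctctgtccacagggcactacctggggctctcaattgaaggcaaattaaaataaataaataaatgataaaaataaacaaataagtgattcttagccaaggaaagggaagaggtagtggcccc
Gabrb1, the second of its RefSeq starts, chr5:71699682-71699931, plus strand: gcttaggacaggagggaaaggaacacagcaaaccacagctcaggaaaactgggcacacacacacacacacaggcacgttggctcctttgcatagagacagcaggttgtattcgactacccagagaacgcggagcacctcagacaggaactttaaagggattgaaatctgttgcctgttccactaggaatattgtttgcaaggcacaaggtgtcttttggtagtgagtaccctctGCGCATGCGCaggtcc
The Gabra2 window held 70% G and C and 18 CpG sites with 1 GC box, and 90.8% of the 32851 RefSeq promoter windows had less G and C. The Gabrg1 window held 35.6% G and C, 1 CpG site and none of the motifs, and the Gabrb1 window shown had 50.8% G and C, 6 CpG sites and 1 NRF1-like match. Of the neighbours' windows not shown, that of Gabra4 held 61.2% G and C, 12 CpG sites and 2 GC boxes, and that of the other Gabrb1 start 64.4% G and C, 18 CpG sites as in Gabra2, and none of the motifs. A GC-rich window was thus not particular to Gabra2. Among all windows of this length, 32.7% held a GC box, 12.4% a TATA box, 1.55% a cAMP response element and 4.98% the NRF1-like palindrome. A match is a description of the letters and not of a bound site.

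Levels of different genes were compared as CPM per kb of merged exons. Over the 36 libraries Gabra3 had the highest mean among the 7 genes, 36.3 ± 2.76 (SD), followed by Gabrb1 at 23.3 ± 3.76, Gabrb2 at 19.2 ± 2.75, Gabra2 at 19.1 ± 6.45, Gabra5 at 17.7 ± 2.63, Gabrg1 at 14.4 ± 1.43 and Gabra4 at 6.59 ± 1.07. Gabrb2, Gabra2 and Gabra5 lay within an SD of each other, and the other neighbours in this order were more than an SD apart. Gabra2 changed its place with the strain: 10.4 ± 0.979 CPM per kb in C57BL/6J (n = 12) was the lowest value but that of Gabra4, whereas 22.9 ± 1.75 in NZO/HlLtJ and 24.2 ± 1.49 in CAST/EiJ stood beside Gabrb1. The order depended on the length used, since Gabrb1, with 13.84 kb of merged exons and 1.42 kb of coding sequence, led the 7 genes at 227 ± 36.6 CPM per kb of coding length.

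Gabra2 was the only one of the 7 genes whose level differed between C57BL/6J and both other strains on both diets. In C57BL/6J it measured 76.0, 79.7 and 77.1 CPM in control females and 74.4, 86.1 and 76.2 CPM in control males. HFHS females of that strain had 97.0, 85.6 and 69.2 CPM and HFHS males 78.7, 71.7 and 82.1 CPM. These 12 values stayed below 100 CPM, and female and male values overlapped. NZO/HlLtJ ran from 164 to 187 CPM on the control diet with a median of 181 CPM, and from 151 to 199 CPM with a median of 168 CPM on HFHS. CAST/EiJ ran from 160 to 202 CPM with a median of 182 CPM on the control diet, and from 175 to 190 CPM with a median of 187 CPM on HFHS. The highest C57BL/6J library was thus below the lowest library of either other strain, while NZO/HlLtJ and CAST/EiJ overlapped. All 12 C57BL/6J libraries lay below all 24 others for 136 of the 20053 genes tested, a share of 0.678%, and Gabra2 was the only one of the 7 genes among them. In the opposite direction, 1.07% of genes had all C57BL/6J libraries above the others, with none of the 7.

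**Figure D1:**
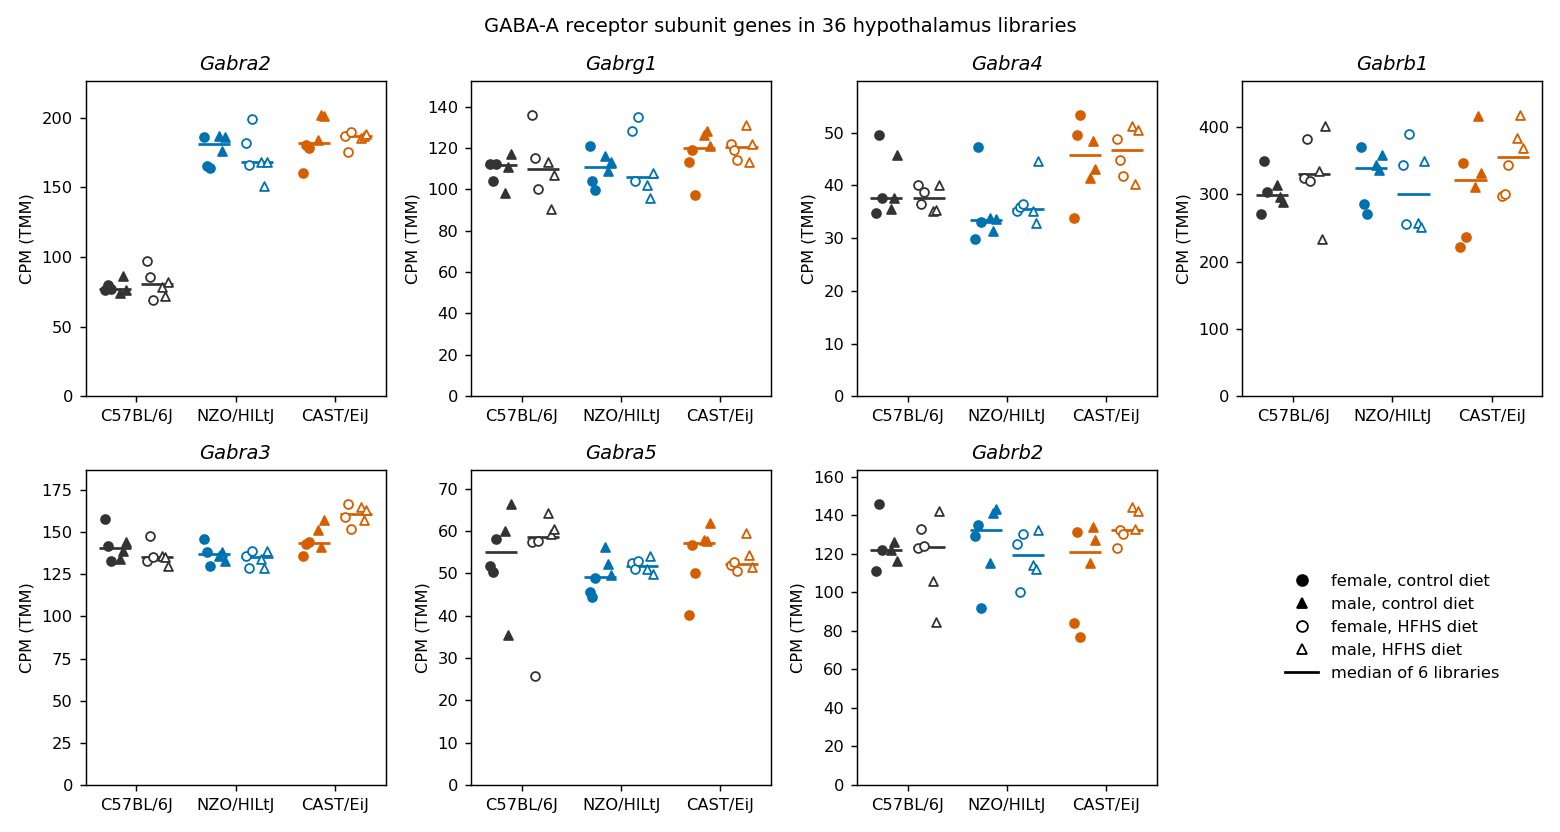
Level of the 7 subunit genes in each of the 36 libraries, in CPM after TMM scaling on axes that start at 0, by strain (colour), diet (filled for control, open for HFHS) and sex (circle for female, triangle for male), with lines at the median of 6 libraries. The C57BL/6J libraries of Gabra2 sit between 69.2 and 97.0 CPM, all below those of the other strains. For the other 6 genes the strains overlap when both diets are pooled. On HFHS all CAST/EiJ libraries lie above both other strains for Gabra3 and above C57BL/6J for Gabra4. How many of all genes separate in this way on HFHS was not counted.

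In the edgeR quasi-likelihood test across all genes, Gabra2 was 2.26-fold higher in NZO/HlLtJ than in C57BL/6J on the control diet (log2 difference 1.18 ± 0.06 SE, adjusted p = 1.17e-15). On HFHS the difference was 1.09 ± 0.06 (2.13-fold, edgeR adjusted p = 8.14e-15). CAST/EiJ exceeded C57BL/6J by 1.23 ± 0.06 on the control diet (2.35-fold, edgeR adjusted p = 1.17e-16) and by 1.20 ± 0.06 on HFHS (2.3-fold, edgeR adjusted p = 1.96e-16). By p-value Gabra2 ranked 30 and 34 of 20053 genes in the NZO/HlLtJ comparisons and 89 and 108 in the CAST/EiJ comparisons. NZO/HlLtJ and CAST/EiJ did not differ in this test (-0.05 ± 0.06 on control, edgeR adjusted p = 0.496, and -0.11 ± 0.06 on HFHS, edgeR adjusted p = 0.148). The HFHS value passed the threshold when NZO/HlLtJ HFHS female 3 (-0.16, edgeR adjusted p = 0.0483) or C57BL/6J HFHS female 3 (-0.12, edgeR adjusted p = 0.0475) was left out.

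Strain differences were common, so these calls have a background. Of the genes tested, 17.7% differed between NZO/HlLtJ and C57BL/6J on the control diet (8.44% higher and 9.29% lower in NZO/HlLtJ), and 15.8% on HFHS (7.54% higher, 8.22% lower). Between CAST/EiJ and C57BL/6J 42.6% differed on the control diet, 21.3% in each direction, and 42.5% on HFHS (20.1% higher and 22.4% lower in CAST/EiJ). Between NZO/HlLtJ and CAST/EiJ 42.9% differed on control (21.2% higher, 21.8% lower in NZO/HlLtJ) and 43.1% on HFHS (22.1% higher, 21% lower). Of the 7 subunit genes, 1 was called in each NZO/HlLtJ comparison with C57BL/6J, 1 for CAST/EiJ with C57BL/6J on control and 3 on HFHS. For NZO/HlLtJ with CAST/EiJ, 1 was called on control and 2 on HFHS. The median log2 difference of the 7 ran from -0.175 to 0.182 over these 6 comparisons, against -0.006 to 0.004 for all genes. A median of 7 genes scatters more than a median of all genes, so these ranges alone show no shift of the 7.

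The question of whether Gabra2 stood apart from its neighbours was taken within each library, as the log2 ratio of Gabra2 CPM to the CPM of a neighbour, which is not corrected for length. The ratio to Gabrg1 ran from -0.61 to -0.34 in C57BL/6J (median -0.46), from 0.51 to 0.72 in NZO/HlLtJ (median 0.67) and from 0.50 to 0.87 in CAST/EiJ (median 0.62). The ratio to Gabra4 ran from 0.68 to 1.28, from 1.81 to 2.63 and from 1.74 to 2.24 in the same order of strains. Against Gabrb1 it was -2.29 to -1.71 in C57BL/6J, -1.06 to -0.62 in NZO/HlLtJ and -1.16 to -0.41 in CAST/EiJ. For each neighbour the C57BL/6J libraries did not overlap those of the other strains. The share of other gene pairs that separate in this way was not counted. All 12 comparisons of C57BL/6J with another strain (3 neighbours, 2 strains, 2 diets) reached the smallest p of a two-sided exact permutation test of 6 against 6 libraries, 0.00216, or 0.00325 after Benjamini-Hochberg adjustment over 18 tests. Their differences ran from 0.91 to 1.39 log2 units. These tests share the Gabra2 values, which did not overlap between C57BL/6J and the other strains. They are thus not independent of each other or of the Gabra2 difference itself. None of the 6 comparisons of NZO/HlLtJ with CAST/EiJ passed (adjusted exact p from 0.0749 to 0.929), and the largest of them, 0.32 for Gabra4 on the control diet, had an adjusted exact p of 0.0807. It passed without NZO/HlLtJ control female 2 (0.43, adjusted exact p = 0.00599), and on HFHS without NZO/HlLtJ HFHS male 3 (0.29, 0.018) or CAST/EiJ HFHS male 2 (0.26, 0.048), again by the exact test.

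**Figure D2:**
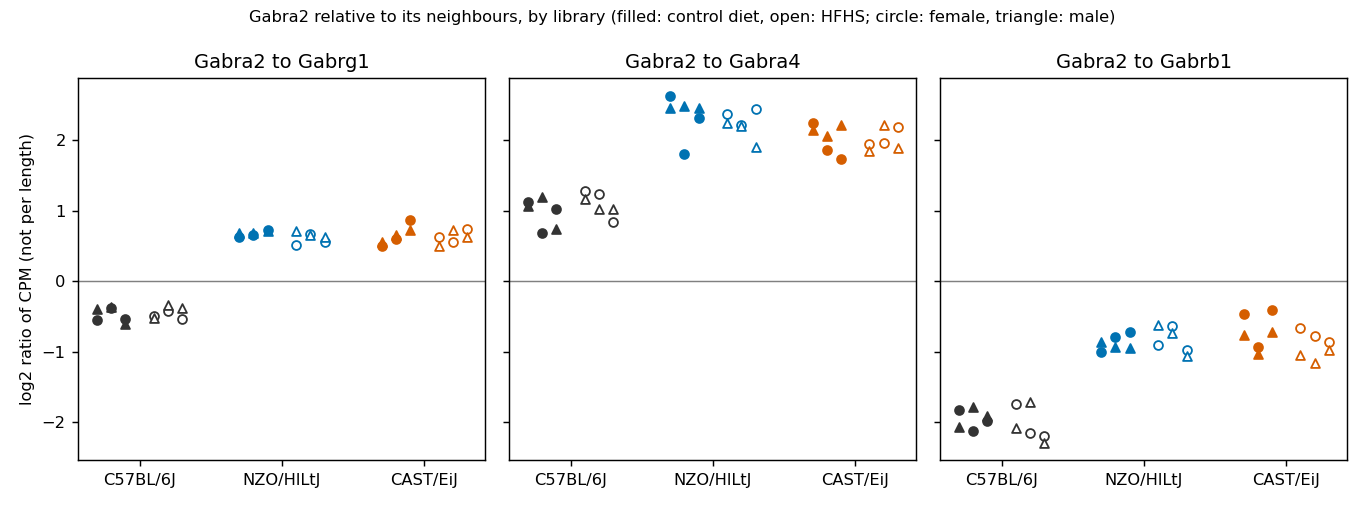
Log2 ratio of Gabra2 CPM to the CPM of Gabrg1, Gabra4 and Gabrb1 in each library, by strain, with filled points for the control diet, open points for HFHS, circles for females and triangles for males. In each panel the C57BL/6J libraries lie below those of the other strains, and NZO/HlLtJ and CAST/EiJ overlap. How many other gene pairs separate in this way was not counted.

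The genes around the cluster were taken by position. Within 1 Mb of the stretch from Gabrg1 to Gabrb1, 19 genes were tested. In NZO/HlLtJ against C57BL/6J on the control diet 3 of them were called, all higher: Gabra2, Atp10d (0.73 ± 0.10, edgeR adjusted p = 1.16e-06), a phospholipid flippase gene that starts 1107.5 kb from Gabra2, and Slc10a4 (0.82 ± 0.18, edgeR adjusted p = 0.00125), a vesicular transporter gene at 1911 kb. On HFHS Gabra2 and Atp10d (0.66 ± 0.10) were higher and Fryl (-0.21 ± 0.07, edgeR adjusted p = 0.0419) was lower. In CAST/EiJ against C57BL/6J 6 were called on each diet, 2 higher and 4 lower. Besides Gabra2, Commd8 was higher on the control diet (0.20 ± 0.06, edgeR adjusted p = 0.00666) and Gabra4 on HFHS. Zar1, an oocyte gene, was lower on both diets (-2.31 ± 0.25 and -2.62 ± 0.25), as were Gm43477 (-1.72 ± 0.39 and -1.76 ± 0.38) and Tec (-0.75 ± 0.19 on each), all at mean levels of at most 2 CPM. The fourth gene to fall was Gm42653 on the control diet (-0.66 ± 0.22) and Slc10a4 on HFHS (-0.48 ± 0.18). Over all tested genes, 17.7% and 15.8% were called for NZO/HlLtJ against C57BL/6J on control and HFHS, and 42.6% and 42.5% for CAST/EiJ. Gabra2 was the only gene of the 19 that was called in all 4 comparisons. The share of all genes called in all 4 was not counted. Farther out, among the neighbours listed by name, Guf1 was lower in CAST/EiJ on both diets (-0.96 ± 0.08 and -0.93 ± 0.08) and Gnpda2 on HFHS (-0.23 ± 0.07).

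**Figure D3:**
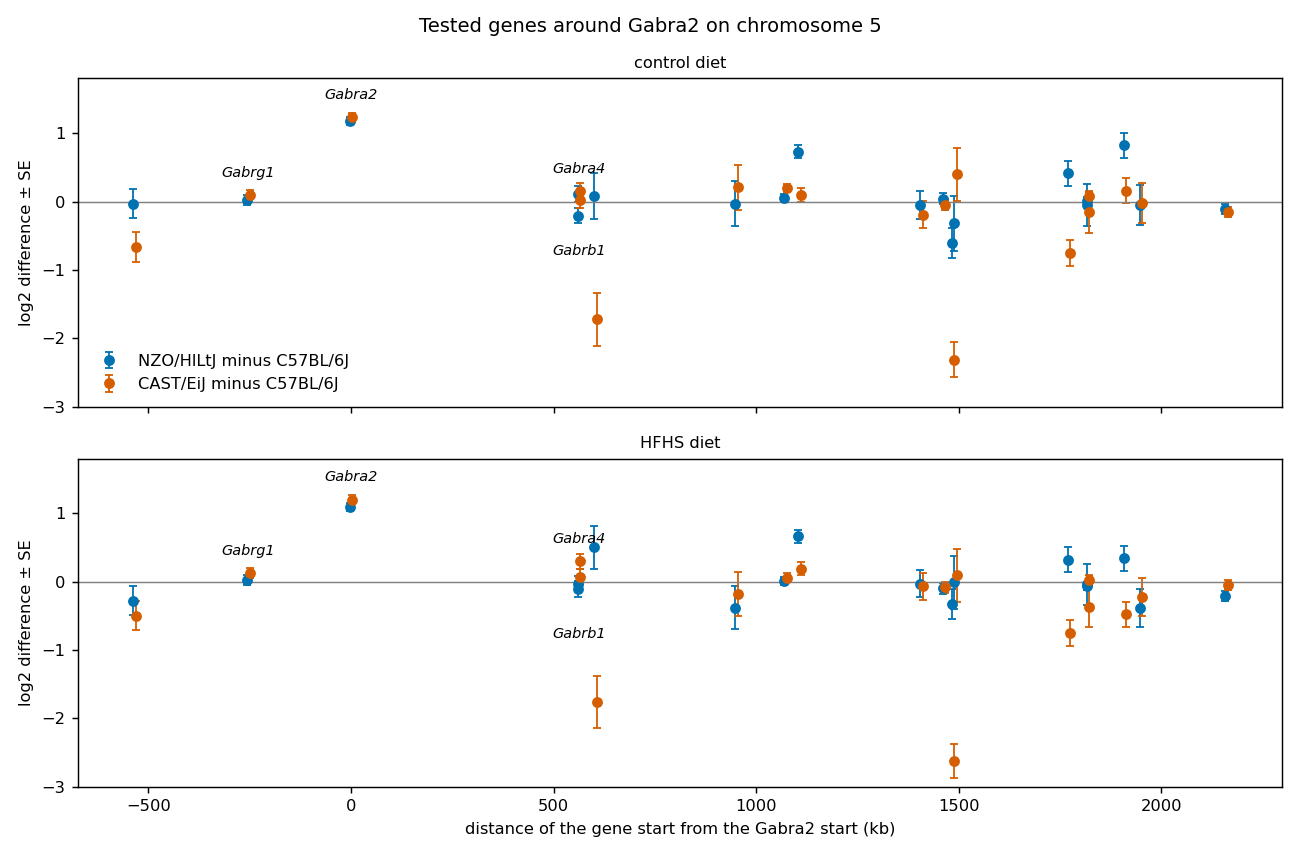
Log2 difference from C57BL/6J with its SE for the 19 tested genes around Gabra2, against the distance of each gene start from the Gabra2 start in kb, for NZO/HlLtJ (blue) and CAST/EiJ (orange) on each diet. Gabra2 stands at 1.09 to 1.23 for both strains, and Gabrg1, Gabra4 and Gabrb1 between -0.21 and 0.30.

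Gabra4, whose alpha subunit is typical of extrasynaptic receptors in thalamus and hippocampus, was higher in CAST/EiJ than in NZO/HlLtJ. C57BL/6J libraries ran from 34.8 to 49.6 CPM (median 37.7) on the control diet and from 35.2 to 40.1 (median 37.6) on HFHS. NZO/HlLtJ ran from 29.8 to 47.3 (median 33.4) and from 32.9 to 44.7 (median 35.6), and CAST/EiJ from 33.8 to 53.4 (median 45.7) and from 40.2 to 51.3 (median 46.8). All 3 strains overlapped on the control diet. On HFHS every CAST/EiJ library was above every C57BL/6J library, by 40.2 against 40.1 CPM at the nearest. In that comparison 42.5% of all genes were called, and the share separated in this way was not counted. The NZO/HlLtJ less CAST/EiJ difference was -0.37 ± 0.11 on control (edgeR adjusted p = 0.00646) and -0.33 ± 0.11 on HFHS (edgeR adjusted p = 0.013), and CAST/EiJ exceeded C57BL/6J by 0.30 ± 0.11 on HFHS (1.23-fold, edgeR adjusted p = 0.0261). On the control diet CAST/EiJ less C57BL/6J was 0.16 ± 0.11 (edgeR adjusted p = 0.237).

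In 4 of the 6 sets of strain and diet, the library with the highest Gabra4 level also had the highest summed level of thalamic markers. Prkcd, Tnnt1, Rorb, Calb2, Lef1, Slitrk6, Ntng1 and Plekhg1, all 8 of which were detected, summed to 518 CPM in NZO/HlLtJ control female 2, where Gabra4 was 47.3 CPM, against 356 to 376 CPM in the other 5 libraries of that strain and diet, where it was 29.8 to 33.9 CPM. NZO/HlLtJ HFHS male 3 had 485 CPM of the markers and 44.7 CPM of Gabra4, C57BL/6J control female 2 had 438 and 49.6 CPM, and CAST/EiJ control female 3 had 529 and 53.4 CPM. The other 2 sets did not show this by the summed level. In C57BL/6J on HFHS, male 2 had the highest marker sum, 394 CPM, with Gabra4 at 35.3 CPM, near the bottom of its set. In CAST/EiJ on HFHS, female 1 had the highest marker sum, 453 CPM, with Gabra4 at 48.8 CPM. Male 1 of that set had the highest Gabra4, 51.3 CPM, with a marker sum of 424 CPM. By the mean log2 level of the markers, C57BL/6J HFHS male 3 was highest in its set (4.54, against 4.29 in male 2). Its Gabra4, 40.1 CPM, was also the highest there. By that measure CAST/EiJ HFHS female 1 and male 1 both stood at 4.8. The HFHS medians of the markers were 340 CPM in C57BL/6J, 371 in NZO/HlLtJ and 429 in CAST/EiJ. Whether thalamic tissue has a part in the strain difference was not tested. A further fit, chosen after seeing the data, took the mean log2 level of the 8 markers as a covariate. That level was not centred within strains. A strain difference in the markers themselves thus cannot be told apart from one in thalamic tissue. In that fit the SE of Gabra4 fell from 0.11 to 0.06. CAST/EiJ less C57BL/6J on HFHS became 0.09 ± 0.06 (edgeR adjusted p = 0.256). NZO/HlLtJ was then lower than C57BL/6J, by -0.29 ± 0.06 on control (edgeR adjusted p = 0.000692) and -0.22 ± 0.06 on HFHS (edgeR adjusted p = 0.0149), and lower than CAST/EiJ, by -0.39 ± 0.06 (edgeR adjusted p = 2.97e-06) and -0.31 ± 0.06 (edgeR adjusted p = 6.64e-05). Gabra2 kept log2 differences of 1.18, 1.23, 1.09 and 1.20 in that fit, with edgeR adjusted p of at most 9.54e-14. The CAST/EiJ and C57BL/6J call on HFHS was also lost without C57BL/6J HFHS male 2, CAST/EiJ HFHS female 1 or CAST/EiJ HFHS male 3, with log2 differences of 0.28, 0.26 and 0.27 (edgeR adjusted p = 0.0547, 0.0685 and 0.0645). With the transcript-length slope as a covariate, chosen after seeing the data, it was 0.24 ± 0.10 (edgeR adjusted p = 0.053). The NZO/HlLtJ and C57BL/6J difference on control, -0.21 ± 0.11 in the fit to all libraries, became -0.32 without NZO/HlLtJ control female 2 (edgeR adjusted p = 0.0333).

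**Figure D4:**
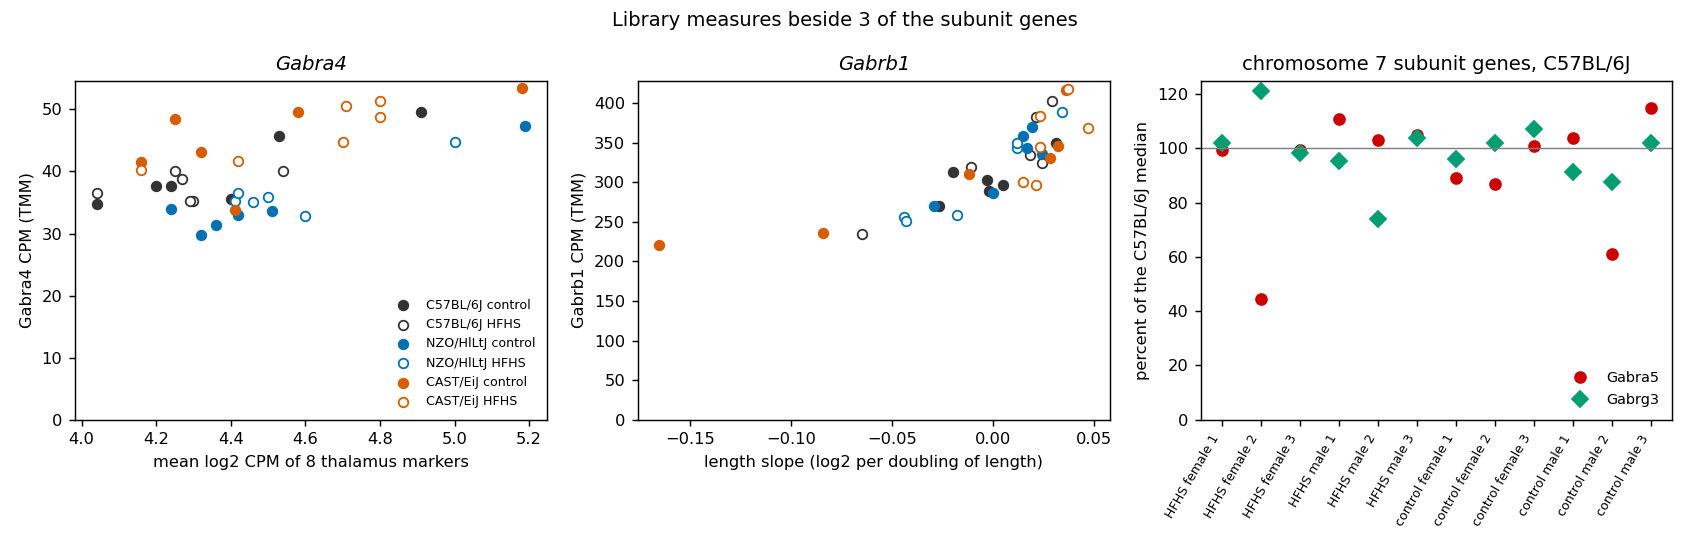
Left, Gabra4 CPM against the mean log2 CPM of 8 thalamic markers, and middle, Gabrb1 CPM against the library's slope on log2 transcript length, both for 36 libraries coloured by strain (filled for control, open for HFHS); right, Gabra5 and Gabrg3 in the 12 C57BL/6J libraries as percent of each gene's median in that strain. Libraries with more thalamic marker RNA mostly have more Gabra4, those with a low length slope have less Gabrb1, and 2 libraries have Gabra5 at 44.4% and 61.1% of the median while Gabrg3 stands at 121% and 87.5%.

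Gabra3, the X-linked gene of the alpha subunit known from monoaminergic neurons, was higher in CAST/EiJ on HFHS. CAST/EiJ HFHS females had 159, 167 and 152 CPM and HFHS males 165, 157 and 163 CPM. On that diet C57BL/6J ran from 130 to 148 CPM (median 135) and NZO/HlLtJ from 129 to 139 CPM (median 135). Every CAST/EiJ library was thus higher than every library of the other strains. The share of all genes separated in this way was not counted. On HFHS 42.5% of genes were called between CAST/EiJ and C57BL/6J and 43.1% between NZO/HlLtJ and CAST/EiJ. The differences were 0.23 ± 0.04 from C57BL/6J (1.18-fold, edgeR adjusted p = 2.93e-05) and -0.26 ± 0.04 for NZO/HlLtJ less CAST/EiJ (edgeR adjusted p = 7.45e-06). On the control diet the strains overlapped, with medians of 141 CPM in C57BL/6J, 137 in NZO/HlLtJ and 143 in CAST/EiJ, and neither comparison with CAST/EiJ passed (edgeR adjusted p = 0.516 for C57BL/6J and 0.0788 for NZO/HlLtJ, the latter 0.0433 without CAST/EiJ control male 2 and 0.0456 with the length slope as a covariate). The diet difference within CAST/EiJ was 0.14 ± 0.04 (edgeR adjusted p = 0.109), with all 6 HFHS libraries above 5 of the 6 control libraries, and the test of whether the diet effect differed between strains gave an edgeR adjusted p of 0.147. DESeq2 called both, at adjusted p = 0.0359 and 0.0497, and edgeR did so without CAST/EiJ control female 2, at adjusted p = 0.0184 and 0.0477. Its within-group SD on the log2 scale, 0.066, was the smallest of the 7 genes and larger than that of 18.2% of genes of like level.

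Gabra5, whose alpha subunit is known from tonic receptors of the hippocampus, was not called between strains, and was low in 2 C57BL/6J libraries. C57BL/6J control females had 51.7, 50.2 and 58.2 CPM and control males 59.9, 35.4 and 66.5 CPM, and HFHS females had 57.5, 25.7 and 57.6 CPM and HFHS males 64.2, 59.4 and 60.5 CPM. HFHS female 2 and control male 2 were thus at 44.4% and 61.1% of the strain's median, and the other 10 libraries lay between 50.2 and 66.5 CPM. Gabrg3, a gamma subunit gene of the same cluster, stood at 86.0 and 62.2 CPM against 52.5 to 76.2 CPM, and Gm9962 at 2.15 and 1.99 CPM against 1.6 to 3.1 CPM. NZO/HlLtJ libraries ran from 44.3 to 56.3 CPM and CAST/EiJ libraries from 40.1 to 61.9 CPM over both diets. The 6 strain differences of Gabra5 lay between -0.12 and 0.00 with SE of 0.13 (edgeR adjusted p from 0.466 to 0.992). The 2 low C57BL/6J libraries enter these values and their SE, and no fit left out both. Its values were not whole in 27 libraries, while those of the other 6 genes were whole in all. Of the 7 genes it had the largest within-group SD, 0.258, above 97.4% of genes of like level.

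Gabrb1 and Gabrb2, the genes of the beta1 and beta2 subunits, and Gabrg1, the gene of the gamma1 subunit that is expressed in hypothalamus and in glia, were not called in any comparison with all libraries. Gabrb1 ran from 234 to 402 CPM in C57BL/6J (median 316, n = 12), from 251 to 389 in NZO/HlLtJ (median 339) and from 221 to 418 in CAST/EiJ (median 337). Gabrb2 ran from 84.5 to 146 CPM, from 91.8 to 143 and from 76.5 to 144, with medians of 123, 127 and 131. Gabrg1 ran from 90.5 to 136 CPM, from 96.0 to 135 and from 97.1 to 131, with medians of 111, 108 and 120. The strains overlapped over most of their range for all 3 genes. The strain differences lay between -0.19 and 0.11 for Gabrb1, between -0.18 and 0.18 for Gabrb2 and between -0.10 and 0.13 for Gabrg1. With SE of 0.12, 0.11 and 0.07, differences of the size seen for Gabra2 would have been many SE from 0, while small differences could not be resolved. Some calls appeared under other settings. NZO/HlLtJ less CAST/EiJ on HFHS was -0.17 for Gabrb2 (edgeR adjusted p = 0.0246) when only the libraries compared were fitted. CAST/EiJ less C57BL/6J on HFHS became 0.21 for Gabrg1 without C57BL/6J HFHS female 1 (edgeR adjusted p = 0.0182) and 0.29 for Gabrb2 without C57BL/6J HFHS male 3 (edgeR adjusted p = 0.0414).

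The libraries with the lowest transcript-length slopes had low levels of both beta subunit genes. CAST/EiJ control females 1 and 3, with the lowest slopes, had the lowest Gabrb1 levels but that of C57BL/6J HFHS male 2 between them, at 221 and 236 CPM, and Gabrb2 levels of 83.8 and 76.5 CPM. C57BL/6J HFHS male 2, with a slope of -0.065, had 234 CPM of Gabrb1 and 84.5 CPM of Gabrb2. The exons of Gabrb1 span 13.84 kb, longer than those of 96.5% of the 15408 genes. With the slope as a covariate, also chosen after seeing the data, the SE of strain differences on the control diet fell from 0.12 to 0.07 for Gabrb1 and from 0.11 to at most 0.08 for Gabrb2, and neither gene was called. In CAST/EiJ, Gabrb2 was 0.28 ± 0.11 higher on HFHS than on control (edgeR adjusted p = 0.198), and 0.06 ± 0.08 higher with the slope in the fit (edgeR adjusted p = 0.877). Leaving out CAST/EiJ control female 2, which leaves the 2 control females with the lowest slopes, gave 0.43 (edgeR adjusted p = 0.00626), an interaction with strain (edgeR adjusted p = 0.0295), and control-diet differences of -0.32 for CAST/EiJ less C57BL/6J (edgeR adjusted p = 0.0122) and 0.33 for NZO/HlLtJ less CAST/EiJ (edgeR adjusted p = 0.0081). The strain difference of Gabra2 was 1.16, 1.28, 1.11 and 1.16 in the slope fit.

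Diet and sex changed none of the 7 genes at the threshold. The edgeR test called 0 genes (0%) for diet in C57BL/6J, with 687 at an unadjusted p under 0.05, and DESeq2 called 3 and limma 0. It called 29 genes (0.145%) in NZO/HlLtJ and 24 (0.12%) in CAST/EiJ, where leaving out CAST/EiJ control female 2 gave 2681, and the diet effect differed between strains for 23 genes (0.115%). HFHS less control for Gabra2 was 0.04 ± 0.06 in C57BL/6J, -0.04 ± 0.06 in NZO/HlLtJ and 0.01 ± 0.06 in CAST/EiJ. Sex was called for 35 genes (0.175%), none of them a GABA-A subunit gene. Female less male was -0.00 ± 0.03 for Gabra2, and among the 7 the largest was -0.16 ± 0.07 for Gabra5 (edgeR adjusted p = 0.551).

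Of the 9 other GABA-A subunit genes in the table, 2 were called for NZO/HlLtJ and 3 for CAST/EiJ against C57BL/6J on control, and 1 and 2 on HFHS. Over all genes the shares called were 17.7% and 42.6% on control and 15.8% and 42.5% on HFHS. All of these calls for the 9 genes were lower than in C57BL/6J. Those for the 7 genes described above were higher, but 4 of the 6 were Gabra2 in its 4 comparisons. Gabrr2, a rho subunit gene known from retina, was lower in CAST/EiJ by -1.87 ± 0.29 on control (edgeR adjusted p = 4.56e-06) and -2.83 ± 0.31 on HFHS (edgeR adjusted p = 1.1e-08), at 0.470 ± 0.107 CPM per kb in C57BL/6J and 0.0948 ± 0.0520 in CAST/EiJ. Gabrq, the theta subunit gene, was lower in CAST/EiJ on control (-0.23 ± 0.07, edgeR adjusted p = 0.0104). Gabra6, Gabrp and Gabrr3 were not analysed here.

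Other genes of GABA transmission showed mostly small differences, to be read against the backgrounds of 17.7% and 15.8% for NZO/HlLtJ and 42.6% and 42.5% for CAST/EiJ. Of 9 genes of GABA synthesis, loading, uptake and breakdown, 1 was called for NZO/HlLtJ against C57BL/6J on control and 0 on HFHS, and 4 and 3 for CAST/EiJ. Aldh5a1, which encodes the last enzyme of GABA breakdown, was higher in CAST/EiJ on both diets (0.22 ± 0.04 and 0.36 ± 0.04), Slc6a12, a betaine and GABA transporter gene, was lower (-1.29 ± 0.49 and -1.74 ± 0.49), and Gad2, a GABA synthesis enzyme gene, was lower on control (-0.26 ± 0.08). Abat, the GABA transaminase gene, was lower on control in NZO/HlLtJ (-0.12 ± 0.04) and CAST/EiJ (-0.13 ± 0.04). Of 19 measured scaffold and trafficking genes, 3 and 0 were called for NZO/HlLtJ and 4 and 8 for CAST/EiJ. Gphn, the gephyrin gene, was lower in CAST/EiJ on HFHS (-0.09 ± 0.03) and in NZO/HlLtJ on control (-0.10 ± 0.03), and Shisa7, an auxiliary receptor protein gene, was higher in CAST/EiJ on HFHS (0.55 ± 0.11). Nsf was lower in NZO/HlLtJ on control (-0.18 ± 0.04). In CAST/EiJ Gabarapl1 was higher on both diets (0.18 ± 0.04 and 0.16 ± 0.04), Gabarapl2 (0.16 ± 0.05) and Zdhhc3 (0.11 ± 0.04) on control, and Iqsec3 (0.23 ± 0.06) and Mdga1 (0.28 ± 0.07) on HFHS, where Rdx (-0.27 ± 0.07) and Trak2 (-0.15 ± 0.06) were lower. Of the 2 chloride transporter genes, Slc12a2, which loads chloride into cells, was lower in CAST/EiJ on both diets (-0.31 ± 0.09 and -0.49 ± 0.09), and Slc12a5, which extrudes it, on control (-0.21 ± 0.08). Of 6 genes of the GABA-B receptor and its partners, 2 and 1 were called for NZO/HlLtJ and 1 and 0 for CAST/EiJ, and Kctd12b was higher in NZO/HlLtJ (0.40 ± 0.08 and 0.33 ± 0.08), where Gabbr1 was lower on control (-0.11 ± 0.03), and Kctd12 was higher in CAST/EiJ on control (0.26 ± 0.10). Of 5 glycine receptor genes, 1 and 2 were called for NZO/HlLtJ and 3 and 1 for CAST/EiJ, and Glrb was lower in NZO/HlLtJ (-0.21 ± 0.06 and -0.17 ± 0.06). Glra4 was higher in NZO/HlLtJ on HFHS (0.75 ± 0.19) and in CAST/EiJ on both diets (0.53 ± 0.20 and 0.66 ± 0.19), and Glra2 (-0.23 ± 0.08) and Glra3 (-0.35 ± 0.13) were lower in CAST/EiJ on control. The summed level of 6 GABA neuron markers had medians of 894 to 1040 CPM over strains and diets, with ranges that overlapped between strains.

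The genes most like Gabra2 over the 36 libraries, by Pearson r of log2 CPM among 15453 genes of mean CPM at least 1, were Wdfy1 and Gm13225 (r = 0.98) and Gm3608, Nnt and Tdg-ps (r = 0.97). All were low in C57BL/6J, which the choice by likeness to Gabra2 favours, since Gabra2 itself was low there. Wdfy1, an endosomal protein gene, averaged 30.5 CPM in C57BL/6J, 101 in NZO/HlLtJ and 124 in CAST/EiJ. Nnt, the mitochondrial transhydrogenase gene that is known to be mutated in C57BL/6J, averaged 23.3, 37.2 and 39.8 CPM. These genes lie on chromosomes 1, 4, 1, 13 and 15, and none was among the 5 closest by Spearman's rho. Within groups, as deviations from the 12 group means, the pattern was another: Gabra2 ran closest to Hnrnph1 (r = 0.87), Ythdf3 (0.86) and Rabep1 (0.84). Gabrb1 ran closest to Tmem245 (r = 0.98), Pclo and Nfat5 (0.97 each), whose exons span 17.09, 22.46 and 18.38 kb against a median of 4.37 kb, and Gabrb2 to Tmod2 and Zyg11b (0.92) and Slc1a2 (0.91). Gabra4 ran closest to Syt7, Adarb1 and Ptpn3 (0.89 each), Gabrg1 to Hspa13 (0.87), Casc4 (0.86) and Tmem106b (0.85), Gabra5 to Col6a4 (0.77), 6230400D17Rik and H2-DMa (0.74 each) and Gabra3 to Dlg2 (0.71), Ogfod1 and Pcdh18 (0.69 each). Among the 7 genes themselves, the deviations of Gabrb1 and Gabrb2 had r = 0.82, those of Gabra2 and Gabrg1 0.68 and those of Gabra2 and Gabrb1 0.56, while Gabra5 had r between -0.24 and 0.20 with the other 6. These correlations share libraries, depth and scaling and are descriptions.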

How the data were processed

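The authors deposited expected counts per gene, per the file headers, and log2 values after a variance-stabilizing transformation, made with DESeq2 per the submitters' processing notes, which also name GRCm38. No source used here names the aligner, counter or annotation release, or says whether strain genomes were used, and the effect of strain variants on read assignment was not tested.

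Of the deposited values, 20.1% were more than 0.01 from a whole number. They were rounded, which moved library totals by at most 0.000186%. No 2 libraries of a group agreed within sampling noise (chi-square per degree of freedom at least 5.6). With edgeR 4.0.16 in R 4.3.3, 20053 of 24265 genes passed filterByExpr, TMM scaling was applied, and the quasi-likelihood F-test compared means of the 12 groups (24 residual degrees of freedom). SE are the absolute log2 difference divided by the square root of F, with an estimate of the spread shared over the 12 groups. The fit was tested on simulated data. A gene was called at a Benjamini-Hochberg adjusted p under 0.05 over all tested genes. Each gene in the table was above 0 in at least 19 libraries. The design had assumed whole counts. Log2 CPM used a prior count of 2, and lengths came from GENCODE M21, where 24108 gene IDs were found. Ratios were tested with SciPy 1.17.1 (exact permutation). Alternatives were DESeq2 1.42.0, limma 3.58.1 on the log2 values, other scaling and filters, an additive sex term, only the libraries compared, 36 fits without 1 library each, and 2 library covariates chosen after seeing the data.

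The 7 genes and all lists were chosen with earlier results of these data known. Named were the 7 genes in all comparisons, called genes of the lists (up to 4 per list and direction by smallest p), tested genes within 1 Mb of the chromosome 5 cluster, and the genes most like each of the 7. Promoters of all 7 genes were found in the RefSeq GRCm38.p6 table. No protein sequence was used here, nor the bases of the intronic deletion, and some genes that the lists count are not reported here by name.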

Additional observations from a re-analysis of the deposited data

Results flagged for a closer look

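In 5 of the 42 sets of 6 libraries (7 genes, 3 strains, 2 diets), the lowest or highest library lay apart from the others by more of the whole range than Dixon's 95% limit for 6 values allows. Chance gives this in about 1 in 20 sets. Gabra5 was 25.7 CPM in C57BL/6J HFHS female 2 against 57.5 to 64.2 CPM in the other 5, and Gabra3 was 148 CPM in the same library against 130 to 136 CPM. Gabra4 was 47.3 CPM in NZO/HlLtJ control female 2 against 29.8 to 33.9 CPM, and 44.7 CPM in NZO/HlLtJ HFHS male 3 against 32.9 to 36.5 CPM. Those Gabra4 libraries had the highest sums of thalamic markers in their sets, 518 and 485 CPM. Gabra2 was 175 CPM in CAST/EiJ HFHS female 2 against 185 to 190 CPM, above all C57BL/6J libraries.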

How the results depend on the processing

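Gabra2 was called higher than in C57BL/6J in all 4 comparisons under each of the 9 other settings and in the 36 fits that leave out 1 library (log2 differences from 0.97 to 1.28, edgeR, DESeq2 or limma adjusted p at most 1.17e-07), and none of the results tested changed direction past the threshold. Sign changes of values that were not called either way were not counted. With the thalamic covariate 2 of the 7 genes were called for NZO/HlLtJ against C57BL/6J on each diet. Over all genes that fit called 3610 of 20053 on control and 2851 on HFHS. With the length slope 2 of the 7 were called for NZO/HlLtJ against CAST/EiJ on control, beside 8322 of 20053 genes. Genes called for diet were 3 by DESeq2 in C57BL/6J. In NZO/HlLtJ they were 153 by DESeq2, 16 with an additive sex term, 173 with only the libraries compared and 74 with the length slope. In CAST/EiJ they were 420 by DESeq2 (1 of the 7 genes), 13 without a filter, 12 with an additive sex term, 6 with only the libraries compared, 9 with the thalamic covariate and 7 with the length slope. For the strain by diet interaction they were 495 by DESeq2 (1 of the 7), 68 with the strict filter, 6 with an additive sex term and 0 by edgeR with the length slope (2309 at an unadjusted p under 0.05), and for sex 92 by DESeq2.

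Leaving out 1 library at a time gave 0 to 2 genes for diet in C57BL/6J, 7 to 98 in NZO/HlLtJ, 7 to 2681 in CAST/EiJ (0 to 2 of the 7 genes), 4 to 1431 for the interaction (0 to 2) and 27 to 161 for sex. The counts of 2681, 1431 and 161 were those without CAST/EiJ control female 2, and the 98 that without CAST/EiJ control female 1. It gave 1 to 2 of the 7 genes for each strain comparison on control, where 17.7% to 42.9% of all genes were called with all libraries. The log2 ratio differences of Gabra2 to Gabra4 between NZO/HlLtJ and CAST/EiJ were then 0.25 to 0.43 on control and 0.18 to 0.29 on HFHS. No paired analysis was possible because the labels give no replicate numbers shared between groups. The cause of these changes was not tested. Depth was not limiting for the 7 genes, which had at least 757 counts in each library. The spread between libraries was, at SE of 0.04 to 0.13 log2 units for strain differences in the fit to all 36 libraries.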
